A study of Homo sapiens with 6 samples.

Results

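The microRNA genes described here are 10 that are linked to p53 or to the response to radiation: MIR34A, MIR34B, MIR34C, MIR192, MIR215, MIR145, MIR143, MIR107, MIR21 and MIR22. They were chosen by gene symbol, and all 10 symbols were found, on 10 of the 67528 transcript clusters of the array (a transcript cluster is the set of probes of 1 locus). Of these 10 features, 6 carried 1 symbol and 4 carried several, so that the MIR145 and MIR143 signal is joined to that of their host RNA CARMN, the MIR22 signal to that of MIR22HG, and MIR34B and MIR34C share a feature, while MIR21 has a feature of its own and a share in that of VMP1. MIR107 has a pair of features. The cells were H460, an established human non-small cell lung cancer line. There were 3 arrays of cells given 7 Gy of radiation and 3 arrays of unirradiated control cells, named as biological replicates, and both groups were the same line with no other agent named. How long after irradiation the RNA was taken is not stated in the sources used here. All signals below are log2 signals of the Human Transcriptome Array 2.0, and differences are irradiated minus control.

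A microRNA is cut from a hairpin inside a longer primary transcript, first by DROSHA and DGCR8 in the nucleus and then by DICER1 in the cytoplasm, and an Argonaute protein carries the mature strand to messenger RNAs that pair with its seed, bases 2 to 8. The miR-34 genes are direct p53 targets and their products lower cell cycle genes. The miR-192 and miR-215 genes, miR-107 and the miR-143 and miR-145 cluster have been tied to p53 through transcription or processing, miR-21 is an abundant microRNA of tumours, and miR-22 is known to act on CDKN1A.

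One mature strand of each gene is shown so that the seeds can be compared. For 9 genes it is the strand the gene is best known for; for MIR34C it is the other arm, and miR-34c-5p, the better known one, is not shown. Seeds are in capitals, and the sequences are those of RefSeq on GRCh38.p14.
hsa-miR-34a-5p (chr1:9151735-9151756, - strand): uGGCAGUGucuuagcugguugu
hsa-miR-34b-5p (chr11:111512950-111512972, + strand): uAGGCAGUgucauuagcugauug
hsa-miR-34c-3p (chr11:111513484-111513505, + strand): aAUCACUAaccacacggccagg
hsa-miR-192-5p (chr11:64891203-64891223, - strand): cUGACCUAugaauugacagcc
hsa-miR-215-5p (chr1:220117916-220117936, - strand): aUGACCUAugaauugacagac
hsa-miR-145-5p (chr5:149430661-149430683, + strand): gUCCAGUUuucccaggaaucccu
hsa-miR-143-3p (chr5:149428978-149428998, + strand): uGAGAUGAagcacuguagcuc
hsa-miR-107 (chr10:89592756-89592778, - strand): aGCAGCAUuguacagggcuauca
hsa-miR-21-5p (chr17:59841273-59841294, + strand): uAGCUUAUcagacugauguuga
hsa-miR-22-3p (chr17:1713914-1713935, - strand): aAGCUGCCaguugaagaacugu
Of the strands shown, miR-192-5p and miR-215-5p share a seed, and 19 of their 21 bases are identical. The miR-34b-5p seed is that of miR-34a-5p shifted by 1 base. miR-107 differs at 1 position from miR-103a-3p, a microRNA from other loci, with 22 of 23 bases identical and the same seed.

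The hairpins of the genes with a feature of their own differ in base composition, which bears on how a dim array signal can be read. The 4 below are shown because their features span the range of signal, and the mature strands are in capitals, except miR-21-3p, which is not marked.
MIR34A (chr1:9151668-9151777, - strand): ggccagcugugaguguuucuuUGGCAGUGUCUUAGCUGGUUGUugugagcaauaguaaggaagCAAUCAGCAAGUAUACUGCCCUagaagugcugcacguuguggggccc
MIR21 (chr17:59841266-59841337, + strand): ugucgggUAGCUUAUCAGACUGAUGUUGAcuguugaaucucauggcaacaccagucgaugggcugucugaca
MIR192 (chr11:64891137-64891246, - strand): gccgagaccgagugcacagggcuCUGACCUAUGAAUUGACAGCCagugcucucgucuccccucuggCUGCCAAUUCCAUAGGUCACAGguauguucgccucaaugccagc
MIR215 (chr1:220117853-220117962, - strand): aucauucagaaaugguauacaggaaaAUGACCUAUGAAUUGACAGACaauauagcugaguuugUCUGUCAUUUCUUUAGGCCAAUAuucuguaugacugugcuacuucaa
MIR215 has a GC content of 34.5% and MIR192 of 57.3%, while MIR34A has 50.9% and MIR21 48.6%.

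After irradiation the signals of MIR21 and of the MIR22HG and MIR22 feature rose, that of the VMP1 and MIR21 feature fell, and 7 features did not pass the test. That is 3 of 10 called (limma, Benjamini-Hochberg adjusted p under 0.05 over all 67528 clusters), beside 5.05% of all clusters. In the higher direction there were 2, beside 2.25% of all clusters, and in the lower direction 1, beside 2.80%. For 4 of the 10 features all irradiated arrays lay on one side of all control arrays, beside 24.6% of all clusters. With the unmoderated test 0 of the 10 were called (adjusted p from 0.0694 to 0.0989 for the 3). The median difference of the 10 features was 0.05, against 0.03 over all clusters. None of the 10 shared its values with another cluster. Nothing in the labels says whether the probes report the primary transcript, the hairpin or the mature strand, so each value is that of a feature.

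**Figure D1:**
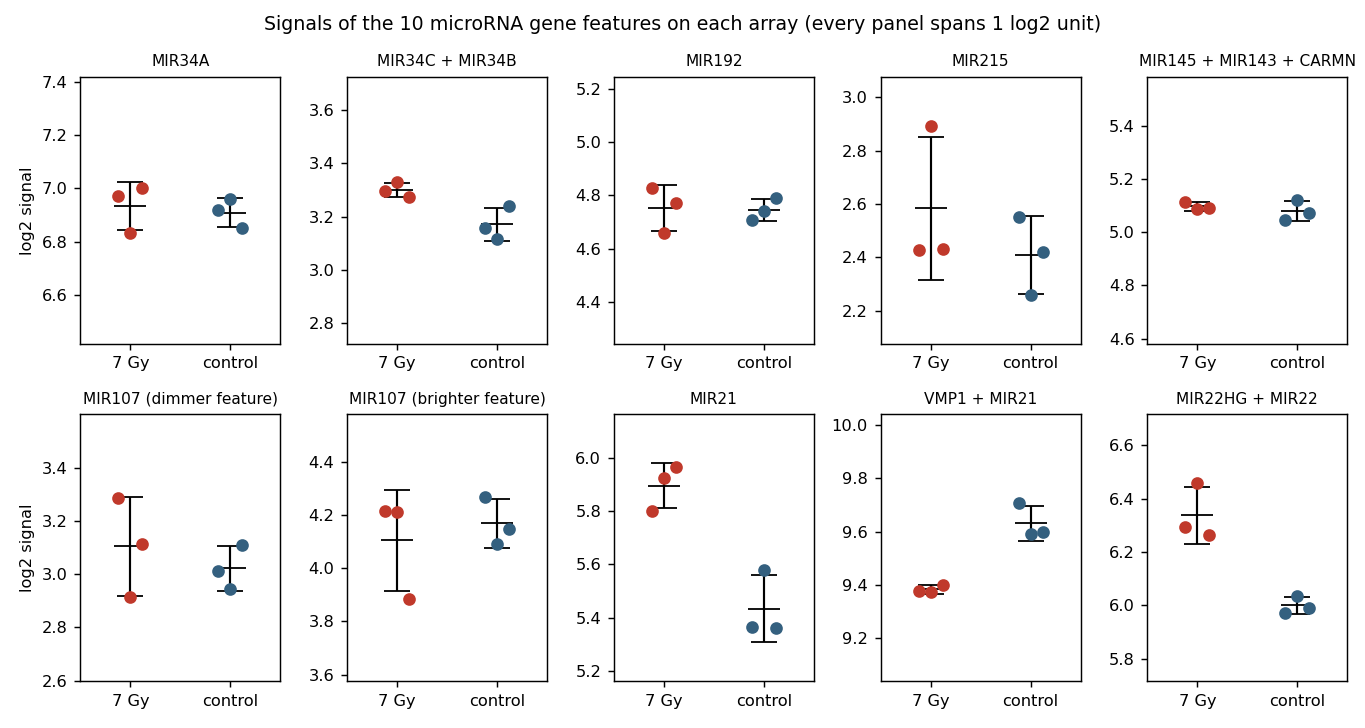
Log2 signal (vertical axis) of each of the 10 features on the 3 arrays of cells given 7 Gy (red, left) and the 3 control arrays (blue, right), with mean and SD in black. Each panel spans 1 log2 unit. The groups stand apart for MIR21, VMP1 with MIR21, MIR22HG with MIR22 and, by a narrow margin, MIR34C with MIR34B.

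MIR34A, the best known p53-activated microRNA gene, had signals of 6.97, 6.83 and 7.00 in irradiated cells, against 6.92, 6.96 and 6.85 in control cells. The groups overlapped. The means were 6.93 ± 0.09 in irradiated cells and 6.91 ± 0.05 in control cells (SD, n = 3 each), a difference of 0.03 (SE 0.06, limma adjusted p = 0.864). The 95% interval of the difference ran from -0.12 to 0.17, so that its upper end is a 1.12-fold rise. This was no dim feature: its mean over the 6 arrays, 6.92, lay above 17 of the 23 background controls and above 85.3% of all clusters. Its hairpin lies within the span of MIR34AHG, its host RNA on the same strand, for which no feature with that symbol was found.

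MIR34B and MIR34C, which are made from 1 transcript and are known mostly from airway and testis, shared a feature with signals of 3.30, 3.33 and 3.28 in irradiated cells, against 3.16, 3.12 and 3.24 in control cells. All 3 irradiated arrays were higher than all 3 control arrays. The difference of 0.13 (SE 0.05) did not pass (limma unadjusted p = 0.0353 and adjusted p = 0.228). The mean signal of 3.24 lay below the median of the background controls, 3.74, and whether the transcript was detected was not settled. BTG4, the gene whose span covers both hairpins on the opposite strand, had a mean of 2.89 in irradiated cells and 2.84 in control cells, and did not pass.

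MIR192 belongs to the cluster with MIR194-2 on chromosome 11 that is known for liver, gut and kidney. Its signals were 4.83, 4.66 and 4.77 in irradiated cells, against 4.71, 4.74 and 4.79 in control cells. The groups overlapped, with a difference of 0.01 (SE 0.06, limma adjusted p = 0.965) and a 95% interval from -0.13 to 0.14. MIR194-2 had 6.22, 6.30 and 6.14 in irradiated cells, against 6.003, 6.07 and 6.02 in control cells. Its groups did not overlap, but its difference of 0.19 (SE 0.05) did not pass (limma adjusted p = 0.113).

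MIR215, the partner of MIR192 by seed, lies with MIR194-1 on chromosome 1 inside the span of IARS2, an isoleucyl-tRNA synthetase gene of the opposite strand. Its signals were 2.43, 2.89 and 2.43 in irradiated cells, against 2.55, 2.26 and 2.42 in control cells. One irradiated array was the highest of the 6 and the others lay among the controls, and the difference of 0.17 (SE 0.14) did not pass (limma adjusted p = 0.565). It was the dimmest of the 10 features, above 2.50% of all clusters. MIR194-1 did not pass, at a mean of 2.60 in irradiated cells and 2.62 in control cells. IARS2 itself had 9.33, 9.34 and 9.37 in irradiated cells, against 9.68, 9.62 and 9.61 in control cells, and fell by 0.29 (SE 0.04, limma adjusted p = 0.0124). That call was lost without control 1 or control 2 (limma adjusted p up to 0.0640).

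The feature of MIR145, MIR143 and their host CARMN, known from smooth muscle, had signals of 5.11, 5.09 and 5.09 in irradiated cells, against 5.04, 5.12 and 5.07 in control cells. The difference was 0.02 (SE 0.04, limma adjusted p = 0.874), with a 95% interval from -0.08 to 0.12. Of 9 measured markers of smooth muscle and fibroblasts, 1 rose, beside 2.25% of all clusters, and 8 did not pass. The one that rose was ACTA2, the smooth muscle actin gene, by 0.89 (SE 0.07, limma adjusted p = 0.00119), while the contractile genes MYH11, CNN1 and DES, picked once their values were known, stood at 0.02, -0.01 and 0.00. Of the epithelial markers, the keratin genes KRT8, KRT19 and KRT18 had mean signals of 10.86, 10.23 and 10.003 over the 6 arrays, whereas the adhesion genes CDH1 and EPCAM had 5.15 and 4.04, above 57.5% and 39.2% of all clusters. None of the 5 epithelial, 5 blood or 4 liver, gut and kidney markers measured was called by limma. The brightest of the blood markers, CD68 and CD14, had differences of 0.28 and -0.17, and of the liver, gut and kidney markers, APOA1 and VIL1, of 0.09 and 0.05.

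The dimmer of the MIR107 features had signals of 3.28, 2.91 and 3.11 in irradiated cells, against 3.01, 2.94 and 3.11 in control cells, a difference of 0.08 (SE 0.10). The brighter one had 4.21, 4.21 and 3.89 in irradiated cells, against 4.27, 4.09 and 4.15 in control cells, a difference of -0.06 (SE 0.10). The 2 features thus differed in sign, and neither passed (limma adjusted p = 0.714 and 0.791). PANK1, the pantothenate kinase gene that hosts MIR107 on the same strand and is itself known as a p53 target, had 5.50, 5.50 and 5.46 in irradiated cells, against 5.40, 5.39 and 5.45 in control cells. Its difference of 0.07 (SE 0.04) did not pass (limma adjusted p = 0.437).

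MIR21 had its own feature, with signals of 5.80, 5.92 and 5.96 in irradiated cells, against 5.36, 5.58 and 5.36 in control cells. Every irradiated array was higher than every control array. The means were 5.90 ± 0.09 in irradiated cells and 5.43 ± 0.12 in control cells (SD, n = 3 each), a 1.38-fold rise (log2 difference 0.46, SE 0.08, limma adjusted p = 0.0171). The call was lost on leaving out control 1, control 3, irradiated 2 or irradiated 3, with adjusted p from 0.0185 to 0.0797 over the 6 fits and differences from 0.42 to 0.53.

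The feature that joins VMP1, a gene of autophagosome formation, with MIR21 went the other way. It had 9.38, 9.37 and 9.40 in irradiated cells, against 9.71, 9.59 and 9.60 in control cells, without overlap. The means were 9.38 ± 0.02 in irradiated cells and 9.63 ± 0.07 in control cells (SD, n = 3 each), and the signal fell by 0.25 (SE 0.05, limma adjusted p = 0.0357). The call was lost on leaving out any 1 of the 6 arrays (adjusted p from 0.0746 to 0.123), and with quantile normalization (adjusted p = 0.0598). In RefSeq the MIR21 hairpin lies within the span of VMP1 on the same strand of chromosome 17. MIR21 minus VMP1 with MIR21, taken within each array, ran from -3.58 to -3.44 in irradiated cells, against -4.34 to -4.01 in control cells. The change of the first was 0.71 above that of the second (SE 0.11). This is 1 of 7 such pairs of features within a locus, and its exact permutation p of 0.1 (two-sided, adjusted p = 0.233 over the 7) is the smallest that 3 against 3 arrays can give.

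The 6 other pairs within a locus gave no more. MIR192 against MIR194-2 (-0.18, SE 0.09) also did not overlap between groups and reached the same exact permutation p of 0.1 (adjusted p = 0.233). So did MIR215 against IARS2 (0.47, SE 0.17), but the MIR215 signal lay near background, and most of this value was the difference of IARS2 itself (-0.29). MIR215 against MIR194-1, MIR107 against PANK1, the MIR107 features against each other and MIR34C with MIR34B against BTG4 had exact permutation p from 0.2 to 0.6.

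The feature of MIR22HG and MIR22 had 6.29, 6.46 and 6.26 in irradiated cells, against 5.97, 6.04 and 5.99 in control cells, with all irradiated arrays above all control arrays. MIR22HG is the host RNA of miR-22 and is known to respond to chemical stress. The means were 6.34 ± 0.11 in irradiated cells and 6.0001 ± 0.03 in control cells (SD, n = 3 each), a 1.26-fold rise (log2 difference 0.34, SE 0.06, limma adjusted p = 0.0264). The call was lost on leaving out any control array or irradiated 1 (adjusted p from 0.0448 to 0.111 over the 6 fits).

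The exact permutation test of single features could not pass either, since 3 against 3 arrays allow no p below 0.1, and the 4 features without overlap had that value. In the order of mean signal the features ran from VMP1 with MIR21 (9.51) over MIR34A (6.92), MIR22HG with MIR22 (6.17), MIR21 (5.66), MIR145 with MIR143 and CARMN (5.09), MIR192 (4.75) and the brighter MIR107 feature (4.14) to MIR34C with MIR34B (3.24), the dimmer MIR107 feature (3.06) and MIR215 (2.50). These levels come from different probes, so the order is that of signals and not of transcript amounts.

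Of the 10 features, 7 had a mean signal above the median of the 23 background controls, 3.74. The controls, however, ran from 2.17 to 11.67 with the GC count of their 25-base probes. Each feature with 1 microRNA symbol was therefore set against controls of the GC counts found in every 25-base window of its hairpin, as if its probes lay there, which the sources used here do not give. Over 879 such features, signal and matched background had a Pearson r of 0.86 across features, which share the arrays and the base composition of the controls and are not independent replicates. The median signal was 0.55 above the matched background, and 316 features (35.9%) were more than 1 above it.

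MIR34A stood 4.04 above its matched background, further than 99.2% of the 879 features, and above the control of every window of its hairpin. MIR21 stood 2.71 above, further than 93.2% of them, and likewise above every window. The brighter MIR107 feature was 1.27 above and exceeded every window. MIR192 was 0.96 above the mean of its windows, 3.79, but below the highest, 5.77. MIR215 and the dimmer MIR107 feature were 0.15 and 0.19 above, less than the median feature, and below their highest window. MIR34A and MIR21 thus had signals well over the background of like base composition, and the MIR215 signal could not be told from it.

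**Figure D2:**
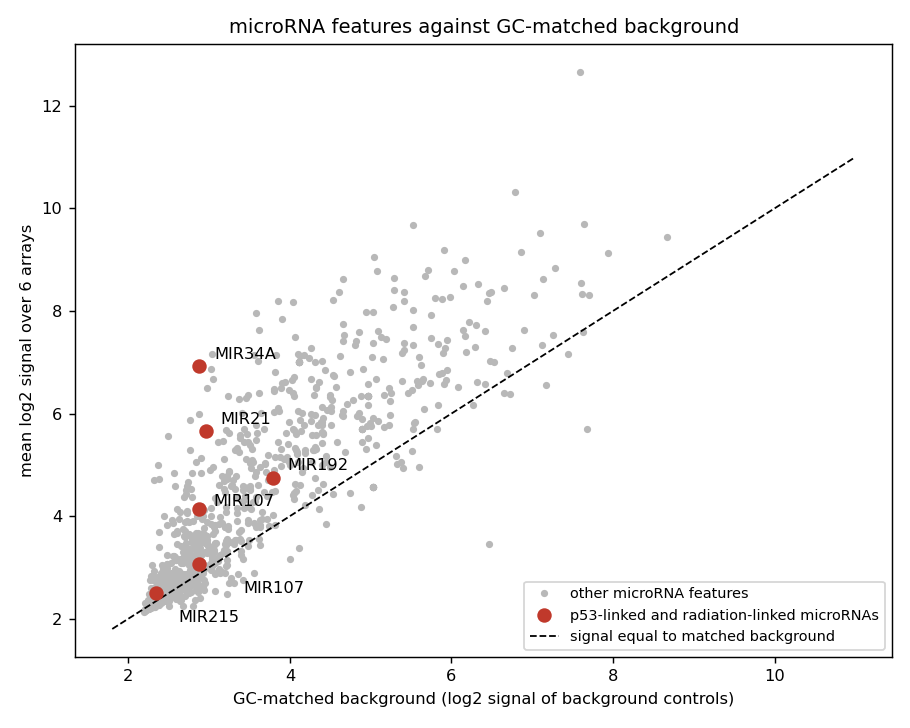
Mean log2 signal over the 6 arrays (vertical axis) of 879 features with 1 microRNA symbol, against the mean log2 signal of background controls with the GC counts of their hairpin (horizontal axis); red points are the 6 features of MIR34A, MIR21, MIR192, MIR107 and MIR215. MIR34A lies 4.04 and MIR21 2.71 above the dashed line of equal signal, while MIR215 lies 0.15 above it.

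Genes of the p53 pathway rose in the same cells. All 8 measured genes of a short reference list rose, beside 2.25% of all clusters, from 0.65 for SESN1, a stress-induced inhibitor of growth signalling, to 2.93 for GDF15, a secreted stress cytokine. CDKN1A, the inhibitor p21 and a known target of miR-22, had 8.42, 8.44 and 8.35 in irradiated cells, against 7.74, 7.73 and 7.45 in control cells. MDM2, the ubiquitin ligase of p53, had 9.76, 9.73 and 9.79 in irradiated cells, against 7.77, 7.60 and 7.73 in control cells. The lowest 95% bound among the 8, 0.48 for SESN1, lay above the upper bound for MIR34A, 0.17, and that of MIR192, 0.14. It lay below the upper bounds for MIR215 (0.497), for MIR22HG with MIR22 (0.485) and for MIR21 (0.641). These 8 genes were known from earlier results of these data to rise, so their count is not independent evidence.

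**Figure D3:**
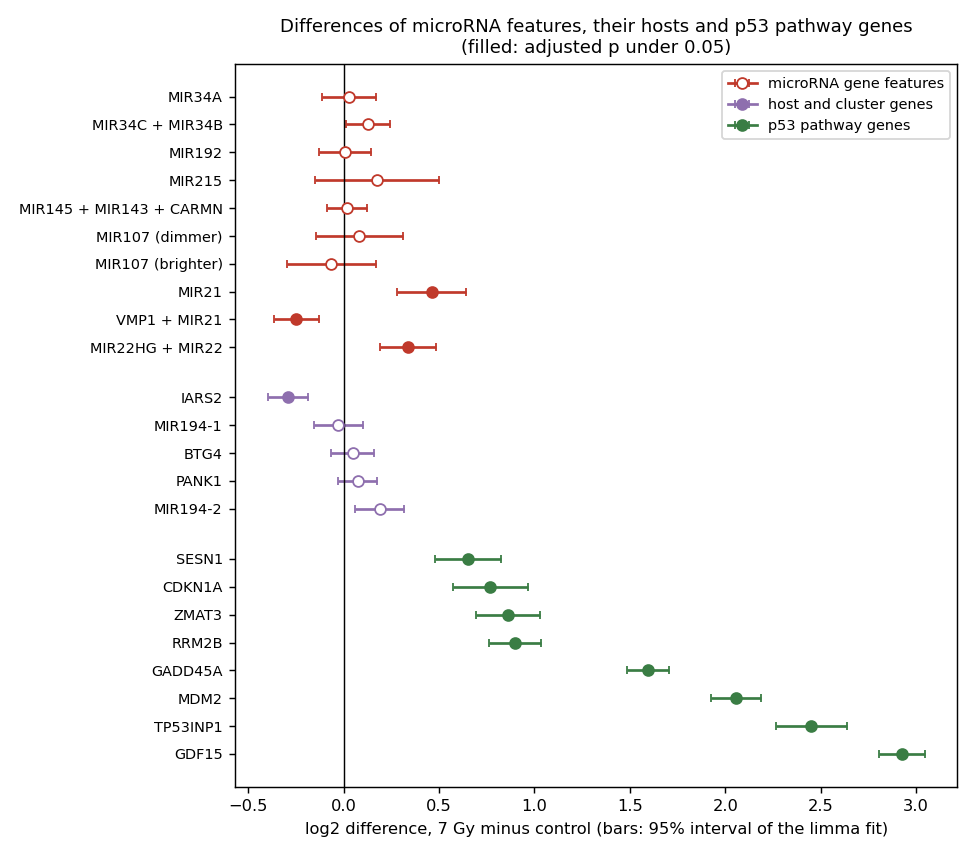
Log2 difference, irradiated minus control, with 95% interval of the limma fit (horizontal axis) for the 10 microRNA gene features (red), 5 host and cluster genes (violet) and 8 p53 pathway genes (green); filled points have an adjusted p under 0.05. The p53 pathway genes lie between 0.65 and 2.93, and the microRNA features between -0.25 and 0.46.

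The p53 half-site, the ten-letter motif that p53 binds in pairs, was searched by its exact letters in RefSeq promoters (GRCh38.p14, from 250 bases before to 50 after a gene's start). The motif is its own reverse complement, so 1 search covers both strands. Of 35116 promoter windows, 6.63% held it. It was present once in the windows of MIR34BHG, CARMN and one of the 2 PANK1 starts, whose features or guests did not pass, and was not found in those of MIR34AHG, MIR194-2HG, VMP1, IARS2 and MIR22HG, nor in those of CDKN1A and MDM2. The window of MIR34BHG is shown for its half-site, in capitals and beginning 61 bases before the start, and that of MIR22HG as the host whose feature rose.
MIR34BHG (chr11:111510352-111510651, + strand): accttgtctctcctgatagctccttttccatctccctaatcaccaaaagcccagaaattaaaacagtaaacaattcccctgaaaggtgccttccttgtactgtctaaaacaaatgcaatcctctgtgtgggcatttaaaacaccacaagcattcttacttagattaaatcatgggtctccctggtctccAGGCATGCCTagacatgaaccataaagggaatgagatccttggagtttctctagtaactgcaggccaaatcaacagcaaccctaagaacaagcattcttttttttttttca
MIR22HG (chr17:1716161-1716460, - strand): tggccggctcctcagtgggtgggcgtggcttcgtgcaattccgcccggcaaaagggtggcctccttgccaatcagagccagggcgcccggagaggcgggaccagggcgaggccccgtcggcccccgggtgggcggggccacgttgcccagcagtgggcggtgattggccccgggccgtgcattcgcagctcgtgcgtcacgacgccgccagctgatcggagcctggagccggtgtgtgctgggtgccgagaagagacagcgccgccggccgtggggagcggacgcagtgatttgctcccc
A match here is one of letters, and its absence says only that these letters are not in the window.

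Of 28 listed genes that make and carry microRNAs, 24 had a feature with 1 symbol, and DGCR8, DDX5, SND1 and KHSRP had none. Of the 24 measured members of this processing machinery, 1 rose and 2 fell, beside 2.25% and 2.80% of all clusters. The median difference was 0.02. SRRT, the nuclear cap-linked factor that promotes primary microRNA processing, had 7.46 in irradiated cells and 7.91 in control cells and fell by 0.45 (SE 0.05, limma adjusted p = 0.00379). RAN, the small GTPase that XPO5 needs for export of precursors, fell by 0.26 (SE 0.05, adjusted p = 0.0396). SMAD3, a signalling factor that can aid DROSHA at some hairpins such as that of MIR21, rose by 0.34 (SE 0.05, adjusted p = 0.0133). The SRRT call held on leaving out any 1 array (adjusted p up to 0.0212), that of RAN held only when control 3 was the array left out (otherwise up to 0.151), and that of SMAD3 only for control 2 or irradiated 1 (otherwise up to 0.0630). The enzymes DROSHA and DICER1, picked once their values were known, stood at -0.17 and -0.03, and neither passed (limma adjusted p = 0.172 and 0.805).

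The list of other microRNAs linked to p53 or radiation had 25 features, among them that of the host RNA MIR210HG beside that of MIR210. Of the 25, 1 rose, beside 2.25% of all clusters, and 24 did not pass (median 0.03). The one was shared by MIR1204 and its host PVT1, a long RNA known to be induced by p53, with 7.16 in irradiated cells and 6.65 in control cells (difference 0.51, SE 0.05, limma adjusted p = 0.00241). MIR25, named after its values were seen, had the lowest difference, -0.43 (SE 0.10), and did not pass (adjusted p = 0.0648). The features of MIR15A with MIR16-1 and DLEU2, of MIR17HG with its cluster, and of MIR155 with MIR155HG had differences of -0.01, -0.14 and 0.08. Of all 1092 features with 1 microRNA symbol, 13 (1.19%) were called in either direction, beside 5.05% of all clusters. These 1092 features were dimmer, with a median signal of 3.83 against 4.68 over all clusters. Whether signal level bears on the lower share was not tested.

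Known target genes of these microRNAs moved in both directions. Of 90 measured targets over 6 lists, 11 rose and 17 fell, beside 2.25% and 2.80% of all clusters, and the median was 0.02 against 0.03 over all clusters. The targets were brighter, with a median signal of 6.76 against 4.68 over all clusters, so these shares are not those of equally bright clusters. Among the 44925 clusters above the median background control, fitted alone, 1846 rose and 2315 fell. In that fit 16 of 88 targets rose and 20 fell. The lists overlap with cell cycle genes, and they were chosen with earlier results known. Of 30 miR-34 targets, 3 rose and 6 fell (median 0.05). CCNE2, the cyclin E2 gene, fell by 1.18 (SE 0.06, limma adjusted p = 2.58e-04) and CDK4, a G1 kinase, by 0.38 (SE 0.05), while AXL, a receptor kinase, rose by 0.31 (SE 0.05) with a call that did not survive omitting any of 3 arrays, control 1, control 2 and irradiated 3 (adjusted p at most 0.0657).

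The 15 measured targets of miR-192 and miR-215 had 7 members that fell, beside 2.80% of all clusters, and none that rose, with a median of -0.20. MCM10, a replication initiation factor, fell by 0.85 (SE 0.05, limma adjusted p = 4.64e-04), MAD2L1, a spindle checkpoint protein, by 0.59 (SE 0.06) and the replication kinase gene CDC7 by 0.36 (SE 0.05). The signals of MIR192 and MIR215 did not pass in either direction, as given above.

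Of 15 targets of miR-143 and miR-145, 3 rose and 1 fell, beside 2.25% and 2.80% of all clusters (median 0.09). The receptor gene EGFR rose by 0.71 (SE 0.05) and SOX9, a lineage transcription factor, by 0.42 (SE 0.06), while the hexokinase gene HK2 fell by 0.59 (SE 0.07). Of 8 miR-107 targets, 2 rose and 1 fell, beside the same shares. TRIAP1, a p53-regulated inhibitor of apoptosis, rose by 0.91 (SE 0.10), ARNT, the partner of hypoxia factors, by 0.24 (SE 0.04), and KIF23, a kinesin of cytokinesis, fell by 0.49 (SE 0.04). ARNT was no longer called in any of the 6 fits with 5 arrays (limma adjusted p at most 0.113), and the unmoderated test ended the calls of HK2 and TRIAP1 (adjusted p = 0.0533 and 0.0537).

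Of 14 miR-21 targets, 2 rose and 2 fell, beside 2.25% and 2.80% of all clusters (median 0.03). The mismatch repair gene MSH6 fell by 0.49 (SE 0.06) and the phosphatase gene CDC25A by 0.48 (SE 0.05), while RHOB, a small GTPase gene of the DNA damage response, rose by 0.44 (SE 0.08). Of the fits with 5 arrays, RHOB was called only in the one that omitted irradiated 1 (limma adjusted p at most 0.107). Of 12 miR-22 targets, 1 rose, beside 2.25% of all clusters, which was CDKN1A by 0.77 (SE 0.08), and none fell (median 0.06). MIR21 and the feature of MIR22HG and MIR22 were both higher in irradiated cells, and the medians of their target lists were 0.03 and 0.06, against 0.03 over all clusters.

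**Figure D4:**
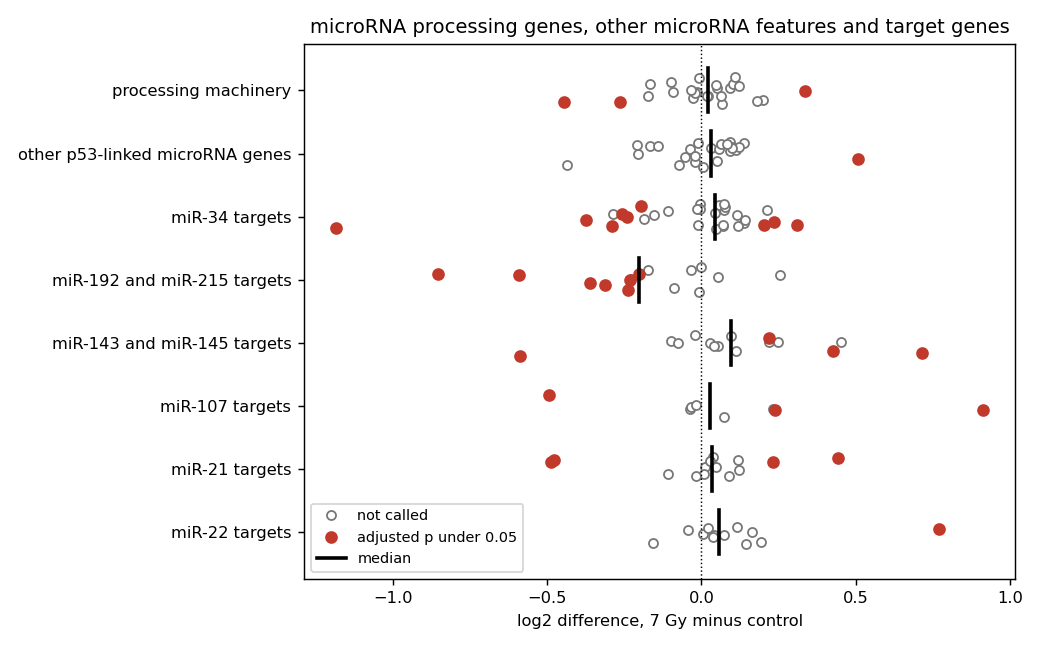
Log2 difference, irradiated minus control (horizontal axis), of each measured member of 8 gene lists (rows); filled red points have a limma adjusted p under 0.05, open points do not, and black bars are list medians. The targets of miR-192 and miR-215 have a median of -0.20, and the other 7 medians lie between 0.02 and 0.09.

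The clusters whose signals over the 6 arrays were most like those of MIR21, by Pearson correlation among 24026 clusters with 1 symbol, were ZNF687, CTBP2, MAVS and MIR613 (r from 0.992 to 0.995). Most like the feature of VMP1 and MIR21 were TMEM38B, SLC30A6, RPN1 and NAA15 (r from 0.995 to 0.999). With 6 arrays in 2 groups such values are a description of shared differences between the groups. The first 4 had differences from 0.12 to 0.51 and the other 4 from -0.54 to -0.22.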

How the data were processed

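Biotin-labelled total RNA from TRIzol extracts was hybridised. The deposited values are log2 signals of features. Their descriptions in the labels point to RMA at gene level, whereas MAS5 (version not given) is the tool in the submitters' processing notes. These are different methods, and which made the values cannot be told apart here, so they were used unchanged. Array medians lay between 4.65 and 4.70. The probe annotation build and detection calls were not used here.

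Of 70523 features, the 67528 transcript clusters were tested. Platform symbols were updated through RefSeq (GRCh38.p14), after which 24027 clusters had 1 symbol and 1297 several, while 42204 were not named in the table used. Two-sided tests came from limma's lmFit and eBayes (version 3.58.1, R 4.3.3), were checked on simulated data, and had their p-values adjusted across the clusters by Benjamini-Hochberg. Intervals are 95% intervals of the moderated fit. A list used the brightest cluster with 1 symbol per gene, and the microRNA and host lists every matching cluster.

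The 10 features and the measured host and cluster genes are all named. From each list up to 3 called genes of largest absolute difference are named, or the 2 brightest where none was called; 1 gene so named is given in the plot of differences only. All 5 epithelial markers are given, 3 of them beyond this rule and after their values were seen. Named too are the 4 clusters most correlated with the feature of largest difference over SE and with the brightest. Members and lists were chosen with earlier results of these data known. Precision is limited by the number of arrays, and p-values measure the spread between arrays that the titles call biological replicates.

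Alternatives were other feature sets, a trended and an unmoderated test, a filter on dim clusters, quantile normalization, centring, array weights, a replicate block and leaving out each array. The GC-matched background was added after seeing the data.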

Additional observations from a re-analysis of the deposited data

How the results depend on the processing

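The 3411 calls over all clusters became 1559 to 2379 when 1 array was left out. The 3 calls among the 10 features became 0 to 1, those of the processing machinery (3) 1 to 2, those of the host and cluster genes beside the 10 features (1) 0 to 1, those of the other microRNA features (1) 1 to 2 and those of the targets (28) 14 to 17. All 8 p53 pathway genes were called in each of these fits. The replicate numbers of the titles did not pair the arrays (correlations of same-numbered deviations 0.01, -0.12 and -0.02). With the replicate block 1598 clusters, 1 of the 10 features (MIR21), 0 host and cluster genes and 14 targets were called. The unmoderated test called 0 of the 10 features. The processing machinery had 5 calls with the trended test and 5 among clusters above the median background control. The other microRNA features had 2 calls with the unmoderated test, among those brighter clusters, with centred arrays and with array weights.

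Of the features that did not pass, 4 changed sign. MIR192 was -0.0133 with quantile normalization and -0.0109 with centred arrays, and ran from -0.0315 to 0.0541 when 1 array was left out. MIR34A ran from -0.00726 to 0.0776, the dimmer MIR107 feature from -0.00755 to 0.177 and the brighter from -0.119 to 0.0454. MIR21, the VMP1 feature and the MIR22HG feature kept their directions in all 15 alternatives. The 7 features above background became 1 against the 75th percentile of the controls, 0 against the highest control and 4 among features with 1 symbol. The causes were not tested, apart from fewer arrays or features in these fits. The number of arrays limits what can be called, and signals near the background controls may understate changes.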

Other observations

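Of the 13 called features with 1 microRNA symbol, 9 had a hairpin in the sequence table used here. Of these 9, 8 had a mean signal more than 1 above the background controls matched to that hairpin by GC. The share over all 879 features so compared was 35.9%. Features near background are less readily called, so this contrast does not bear on whether the calls are right. The genes named here were picked after their values were seen. MIRLET7I, a let-7 gene, stood 3.59 above its matched background and had 6.97 in irradiated cells and 7.32 in control cells. MIR3126 stood 3.11 above it, with 6.22 in irradiated cells and 5.75 in control cells, and MIR604 stood 2.68 above it, with 6.75 in irradiated cells and 6.20 in control cells. The exception among the 9 was MIR613, 0.52 above its matched background, which also was among the 4 clusters most like MIR21 over the 6 arrays. Of the 13, 3 had both group means under the median background control, 3.74. They were MIR613, MIR125B2 and MIR548L, and MIR125B2 and MIR548L had no hairpin to match.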
